A study of Homo sapiens with 9 samples.

Results

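The transcription factors that hold the hepatocyte gene program together were followed in HepG2 cells, a human liver cancer line, after CRISPR targeting of KEAP1. The members were named as HNF4A, FOXA1, FOXA2, FOXA3, CEBPA, CEBPB, PROX1 and NR5A2 and were found by their gene numbers in the deposited read counts. Of these 8 genes, 7 were measured among the 11743 genes with a gene number, and all 7 passed the filter on low counts that left 11064 genes for testing. NR5A2 was not analysed here.

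The cells had been transduced with the lentiCRISPRv2 vector, which delivers Cas9 and a guide RNA together, and selected with puromycin. The guide targeted either AAVS1, a locus used as a control for cutting (sgCtrl), or KEAP1, with 2 different guides (labelled sgKeap1-1 and sgKeap1-2, written sgKEAP1-1 and sgKEAP1-2 here). KEAP1 is the adaptor that brings the transcription factor NRF2 to its ubiquitin ligase for degradation. RNA was taken 48 h after seeding from 3 libraries a group, 9 in all. All groups therefore carry Cas9, a guide and the selection marker. No single-cell cloning is described, and the number of transductions behind each group is not stated. Nothing in the labels says that the libraries of a group came from separate transductions, so the p-values measure the spread between these samples, which may be technical. Libraries were made with the QuantSeq 3′ kit, which reads each transcript near its poly(A) tail, and held 3011644 to 4725840 reads on named genes.

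In hepatocytes, these factors bind one another's genes and a shared set of liver enhancers. HNF4A is a nuclear receptor at the centre of the network, the FOXA proteins are forkhead pioneer factors that open liver chromatin, the C/EBP proteins are leucine zipper factors of metabolism and the acute phase, and PROX1 is a homeobox factor that partners HNF4A and restrains its activity at some genes. In development FOXA factors act early, HNF4A sets the mature hepatocyte state, and CEBPA accompanies the exit from proliferation.

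Values are given as normalised CPM, each gene's share of its library's reads on the usual CPM scale after TMM scaling. Since the kit yields reads from 1 end of a transcript, CPM was not divided by transcript length, and the order of levels between genes is on this scale. In sgCtrl cells HNF4A stood highest with 244 ± 25.4 normalised CPM (SD, n = 3), followed by CEBPA, CEBPB, FOXA2, PROX1, FOXA1 and FOXA3. The libraries of HNF4A and CEBPA overlapped, as did those of CEBPB and FOXA2 and those of FOXA2 and PROX1. The gaps from CEBPA to CEBPB, from PROX1 to FOXA1 and from FOXA1 to FOXA3 were wider than the spread of the sgCtrl libraries. HNF4A ranked 729 among the 11064 tested genes in sgCtrl, 1059 in sgKEAP1-1 and 1201 in sgKEAP1-2 cells. In both KEAP1-targeted groups CEBPA and CEBPB had higher means than HNF4A, although the libraries of each overlapped with those of HNF4A in both groups.

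**Figure D1:**
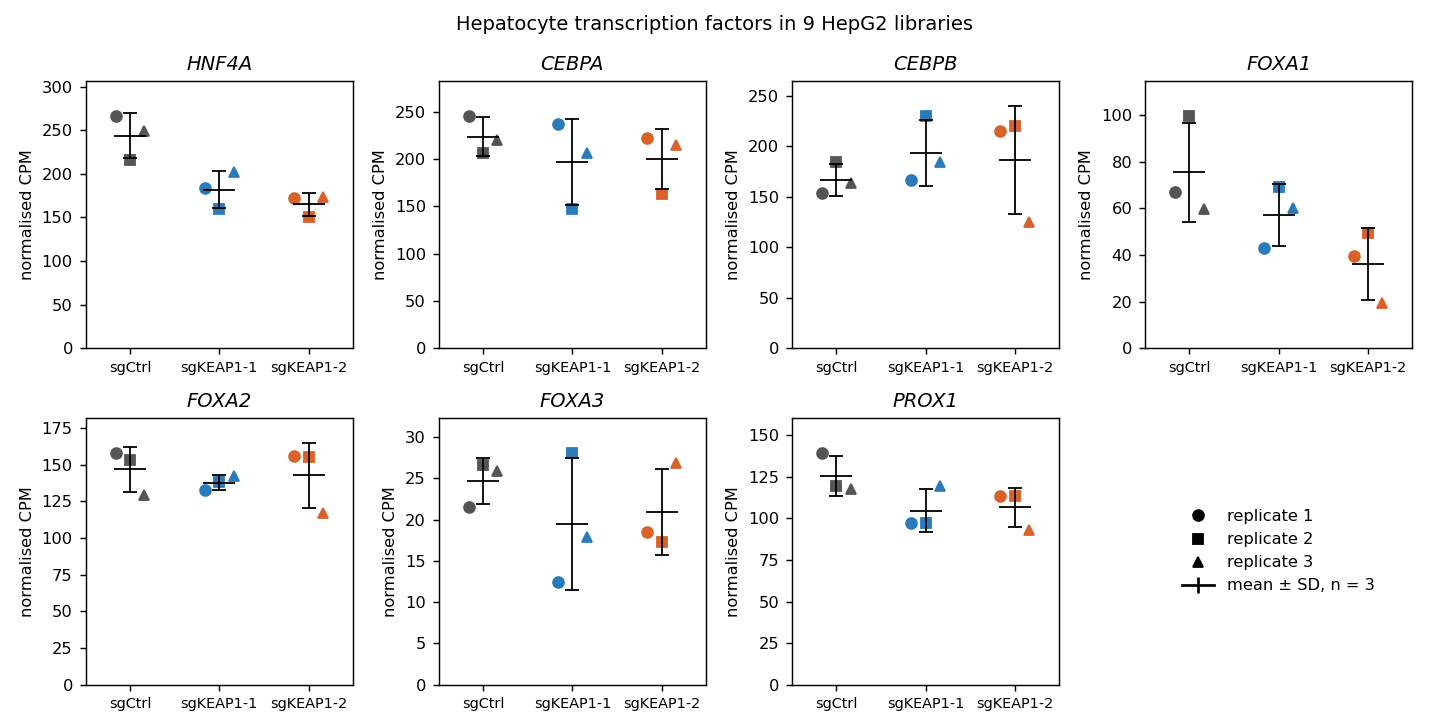
Normalised CPM of the 7 hepatocyte transcription factors in each library of sgCtrl, sgKEAP1-1 and sgKEAP1-2 cells (points, shaped by replicate number), with the group mean and SD (n = 3). HNF4A in both KEAP1-targeted groups and FOXA1 and PROX1 in sgKEAP1-2 cells lie below every sgCtrl library, while FOXA2, FOXA3, CEBPA and CEBPB overlap with sgCtrl.

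In the main edgeR test HNF4A was the 1 member with a change past the threshold, and it fell in sgKEAP1-2 cells. FOXA1 passed there in other fits only, which are given below. The HNF4A gene lies on chromosome 20 (chr20:44355699-44434596 in GRCh38.p14) and is transcribed from 2 start sites 45540 bases apart, which give isoforms with different amino termini. Reads near the poly(A) tail cannot tell the upstream start from the downstream start, so the counts cover both. The RefSeq windows before each start site are shown because any change in HNF4A counts sums over these promoters. Each runs from 250 bases before the start site on the plus strand, with only the first transcribed base in capitals.
HNF4A upstream start, chr20:44355449-44355699: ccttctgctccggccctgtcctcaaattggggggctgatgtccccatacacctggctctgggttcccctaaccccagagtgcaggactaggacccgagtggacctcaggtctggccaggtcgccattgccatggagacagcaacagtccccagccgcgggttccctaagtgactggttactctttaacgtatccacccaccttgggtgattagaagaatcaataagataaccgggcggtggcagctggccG
HNF4A downstream start, chr20:44400989-44401239: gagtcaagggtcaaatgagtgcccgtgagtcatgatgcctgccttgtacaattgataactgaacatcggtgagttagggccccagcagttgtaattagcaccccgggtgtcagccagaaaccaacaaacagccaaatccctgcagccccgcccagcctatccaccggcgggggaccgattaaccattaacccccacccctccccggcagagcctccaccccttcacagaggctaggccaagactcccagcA

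The 3 sgCtrl libraries held 266.5, 216.4 and 249 normalised CPM of HNF4A. The sgKEAP1-1 libraries held 183.2, 159.9 and 202, and the sgKEAP1-2 libraries 171.8, 150.2 and 173.2. Every library of both KEAP1-targeted groups was below the lowest sgCtrl library. In sgKEAP1-2 cells HNF4A fell to 0.676 of its sgCtrl level, a log2 fold change of -0.56 (95% interval -0.85 to -0.28) with an adjusted p of 0.0126 from edgeR's quasi-likelihood F-test (Benjamini-Hochberg over all tested genes). In sgKEAP1-1 cells the log2 fold change was -0.43 (95% interval -0.71 to -0.14) and did not pass, with an edgeR adjusted p of 0.0946. In a fit blocked on replicate number it passed for sgKEAP1-1 (log2 fold change -0.43, edgeR adjusted p 0.0121). Between the guides the log2 difference was -0.14 (95% interval -0.42 to 0.14, edgeR adjusted p 0.986). Libraries with the same number differed by -0.54, -0.44 and -0.30 for sgKEAP1-1 and by -0.63, -0.53 and -0.52 for sgKEAP1-2 on the log2 scale. The call for sgKEAP1-2 was lost without sgCtrl replicate 1 (log2 fold change -0.50, edgeR adjusted p 0.0706), sgCtrl replicate 3 (-0.55, edgeR adjusted p 0.0535) or sgKEAP1-2 replicate 2 (-0.49, edgeR adjusted p 0.0609).

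Many other genes differed in the same comparisons. For sgKEAP1-2 against sgCtrl edgeR called 10.8% of all tested genes (4.85% lower and 5.97% higher), and the groups did not overlap for 28% of them. Among the members 1 of 7 was called, and 3 of 7 had groups that did not overlap. For the same contrast limma-voom and DESeq2 each called 2 members (HNF4A and FOXA1), among 1115 and 1289 genes called in all. At an unadjusted p under 0.05 the members numbered 2 of 7, against 23.3% of all tested genes. For sgKEAP1-1 against sgCtrl edgeR called 4.2% of tested genes, and the groups did not overlap for 21.7%. Of the members 0 of 7 were called there by edgeR, limma-voom or DESeq2, with 1 at an unadjusted p under 0.05 (15% of all tested genes), and 1 of 7 had groups that did not overlap. In the blocked fit 977 genes and 1 member (HNF4A) were called for sgKEAP1-1, against 465 genes and 0 members without the block. For sgKEAP1-2 it called 1955 genes and 2 members (HNF4A and FOXA1), against 1197 genes and 1 member. The median log2 fold change of the 7 members was -0.27 for sgKEAP1-1 and -0.23 for sgKEAP1-2, beside medians of 0 and -0.01 over all tested genes. Of the 7 members 6 had a negative sign with each guide, CEBPB being the exception. Of all 11064 tested genes 5540 had a negative sign with sgKEAP1-1 and 5716 with sgKEAP1-2. These contrasts share the sgCtrl libraries and are given side by side.

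**Figure D2:**
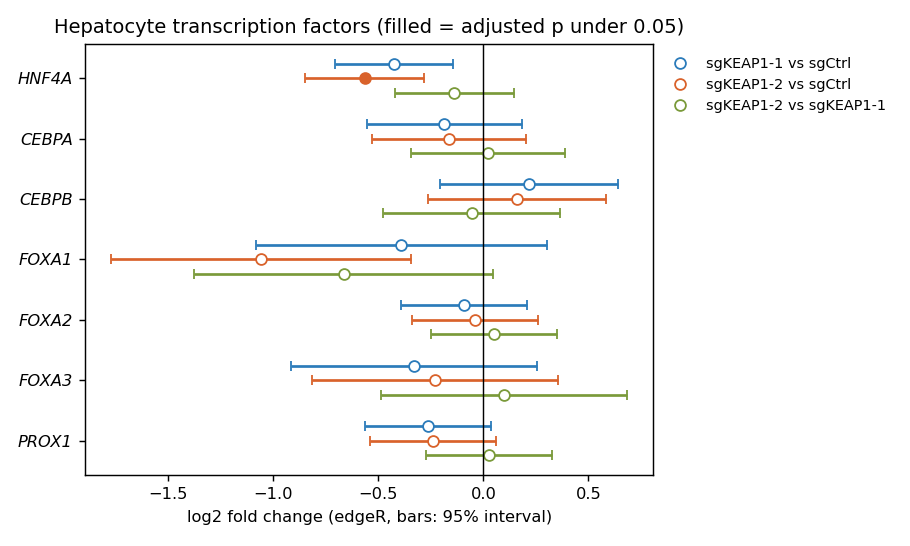
Log2 fold changes of the 7 factors by edgeR for each KEAP1 guide against sgCtrl and for the guides against each other, with 95% intervals. The filled point is HNF4A for sgKEAP1-2 (-0.56), and FOXA1 for sgKEAP1-2 has a wide interval (-1.77 to -0.34).

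By the root mean square distance between log2 profiles centred over the 9 libraries, the genes closest to HNF4A included FGFR4 (0.0502) and MAL2 (0.0658), set against a range of 0.825 for HNF4A itself. FGFR4, the hepatocyte receptor for the bile acid signal FGF19, had log2 fold changes of -0.40 (sgKEAP1-1, edgeR adjusted p 0.167, and 0.0364 with the replicate block) and -0.54 (sgKEAP1-2, edgeR adjusted p 0.0268). The call on FGFR4 was lost without sgCtrl replicate 1 (0.128), sgCtrl replicate 3 (0.064), sgKEAP1-2 replicate 1 (0.0601) or sgKEAP1-2 replicate 2 (0.119), each an edgeR adjusted p. MAL2, a protein of apical transport in polarised cells, had -0.39 (edgeR adjusted p 0.0908, and 0.0208 with the replicate block) and -0.62 (edgeR adjusted p 0.0037). Both genes were picked for their likeness to HNF4A over these same libraries, so their fold changes follow from that choice.

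Among the FOXA factors, FOXA1 (chr14:37589552-37595249) held 67.03, 99.7 and 59.67 normalised CPM in sgCtrl cells. The sgKEAP1-1 libraries held 42.87, 69.06 and 59.96, and the sgKEAP1-2 libraries 39.71, 49.51 and 19.38. The sgKEAP1-2 libraries were all below sgCtrl, whereas those of sgKEAP1-1 overlapped with it. The fold for sgKEAP1-2 was 0.481, a log2 fold change of -1.06 (95% interval -1.77 to -0.34) that did not pass (edgeR adjusted p 0.0653). It did pass with the replicate block (log2 fold change -1.08, edgeR adjusted p 0.00284), with limma-voom (adjusted p 0.0357), with DESeq2 (adjusted p 0.00708) and in edgeR without sgKEAP1-2 replicate 2 (log2 fold change -1.36, adjusted p 0.0297). Over the 9 libraries left out in turn, the log2 fold change ranged from -1.36 to -0.75 and the edgeR adjusted p from 0.0297 to 0.177. For sgKEAP1-1 the log2 fold change was -0.39 (95% interval -1.08 to 0.30, edgeR adjusted p 0.661), and between the guides it was -0.67 (95% interval -1.38 to 0.05, edgeR adjusted p 0.975). FOXA1 was the most variable of the 7 members, with a biological coefficient of variation of 26.7%, compared with 13% for HNF4A and a median of 16.4% over all tested genes.

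FOXA2 (chr20:22580998-22585490) held 158.2, 153.1 and 129.4 normalised CPM in sgCtrl, 132.5, 137.9 and 142.5 in sgKEAP1-1 and 155.8, 155.4 and 117 in sgKEAP1-2 cells. The groups overlapped, and the log2 fold changes were -0.09 (95% interval -0.39 to 0.21, edgeR adjusted p 0.85) and -0.04 (95% interval -0.34 to 0.26, edgeR adjusted p 0.901). FOXA3 (chr19:45864326-45873797) was the least abundant member, at 21.46, 26.54 and 25.93 in sgCtrl, 12.42, 28.1 and 17.88 in sgKEAP1-1 and 18.47, 17.32 and 26.89 in sgKEAP1-2 cells. Its groups overlapped as well. Its log2 fold changes were -0.33 (95% interval -0.92 to 0.26, edgeR adjusted p 0.67) and -0.23 (95% interval -0.82 to 0.35, edgeR adjusted p 0.685).

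These paralogues bind the same forkhead motif, so their makeup was also described as shares of the summed FOXA counts, which were 674 to 1079 reads a library. The FOXA1 share was 27.2%, 35.7% and 27.8% in the sgCtrl libraries and 18.6%, 22.3% and 11.9% in those of sgKEAP1-2, with 95% Wilson intervals that reached from 24.4% to 39% in sgCtrl and from 9.64% to 25.1% in sgKEAP1-2 cells. Intervals of this kind cover counting error only, and the reads carry no molecular identifiers. The group means were 30.2 ± 4.76% in sgCtrl, 26.5 ± 3.34% in sgKEAP1-1 and 17.6 ± 5.28% in sgKEAP1-2 cells (SD, n = 3). No sgKEAP1-2 library overlapped with either other group. The difference of -12.6 percentage points between sgKEAP1-2 and sgCtrl had an exact two-sided permutation p of 0.1, the smallest that 3 libraries against 3 can give (0.25 after Benjamini-Hochberg adjustment over the 15 share comparisons made). The FOXA2 share was 59.7% in sgCtrl, 64.6% in sgKEAP1-1 and 71.5% in sgKEAP1-2 cells, with an exact permutation p of 0.1 for sgKEAP1-2 against sgCtrl (0.25 adjusted). In this permutation test the differences could not pass 0.05 at this number of libraries. The FOXA1 and FOXA2 shares are parts of the same sum, so they are not separate results. The level of FOXA2 itself did not pass with either guide.

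**Figure D3:**
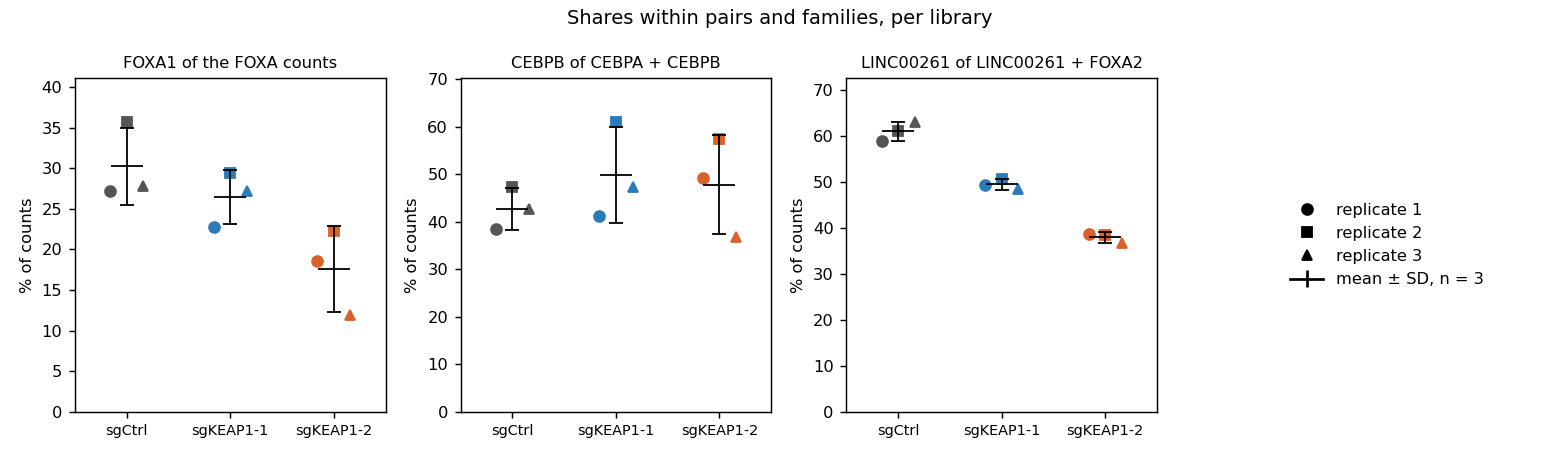
Shares of counts per library (points, shaped by replicate number) with the group mean and SD (n = 3), on axes from 0. The FOXA1 share of FOXA counts is lowest in sgKEAP1-2 cells (17.6%), the CEBPB share overlaps between all groups, and the LINC00261 share of LINC00261 and FOXA2 counts steps from 61% to 49.4% to 37.9%.

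The long noncoding RNA LINC00261, whose gene lies beside FOXA2 and has been tied to FOXA2 expression in endoderm, fell with both guides although FOXA2 did not pass with either. The genes are 2355 bases apart on chromosome 20 (LINC00261 at chr20:22560553-22578642). LINC00261 held 226.8, 240.2 and 220.3 normalised CPM in sgCtrl, 128.1, 141.4 and 133.6 in sgKEAP1-1 and 98.51, 96.83 and 67.59 in sgKEAP1-2 cells, and no 2 of the groups overlapped. The log2 fold changes were -0.77 (SE 0.14, edgeR adjusted p 0.00538) and -1.39 (SE 0.15, edgeR adjusted p 2.48e-05), and both calls were kept when any 1 library was left out. The direct difference between the guides was -0.62 and did not pass (edgeR adjusted p 0.406, and 0.033 with the replicate block). As a share of LINC00261 and FOXA2 counts together, LINC00261 made up 61 ± 2.04% in sgCtrl, 49.4 ± 1.14% in sgKEAP1-1 and 37.9 ± 1.14% in sgKEAP1-2 cells (SD, n = 3). Each of these differences had an exact permutation p of 0.1, again the smallest possible (0.25 adjusted). How the counting treated strand is not given in the sources used here, so reads from overlapping or antisense transcripts could not be told apart.

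The sequence before the LINC00261 start site is shown because it holds a forkhead motif. It is written 5′ to 3′ on the minus strand, with the motif matches and the first transcribed base in capitals.
LINC00261, chr20:22578642-22578892: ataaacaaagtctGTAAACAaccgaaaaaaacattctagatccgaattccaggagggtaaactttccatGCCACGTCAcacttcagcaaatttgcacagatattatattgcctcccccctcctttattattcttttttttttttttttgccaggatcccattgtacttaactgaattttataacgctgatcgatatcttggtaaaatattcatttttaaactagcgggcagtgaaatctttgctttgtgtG

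Motifs were searched on both strands in windows from 250 bases before to 50 after each start site in RefSeq's GRCh38.p14 tables. They were the core TGACNNNGC of the antioxidant response element bound by NRF2 (found in 13.3% of all 35116 windows), the HNF4 motif CAAAGTCCA (0.384%), the forkhead motif TGTTTAC (3.42%) and the C/EBP motif TTGCGCAA (0.151%). The tables held 7 windows for 5 of the 7 members, namely HNF4A, FOXA1, FOXA3, CEBPA and CEBPB. In these windows there was 1 match, TGACGCAGC starting at position -57 from the second start site of CEBPB. The LINC00261 window held GCCACGTCA, an NRF2 core on the opposite strand, at position -181 from the start, and GTAAACA, the reverse complement of the forkhead motif, at -237. Windows of CEBPA-DT, KEAP1 and the partner and target genes were also searched where the tables held them, and are not reported here. Whether these matches are particular to LINC00261 is therefore not shown. A match describes letters in these windows and no binding.

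The C/EBP factors did not pass in any comparison. CEBPA (chr19:33299934-33302534), which drives metabolic genes and restrains proliferation, held 245.9, 206.2 and 220 normalised CPM in sgCtrl, 237.5, 147.5 and 206.5 in sgKEAP1-1 and 222.3, 163.4 and 214.9 in sgKEAP1-2 cells. The groups overlapped. Its log2 fold changes were -0.19 (95% interval -0.55 to 0.18, edgeR adjusted p 0.719) and -0.16 (95% interval -0.53 to 0.20, edgeR adjusted p 0.636). The divergent noncoding transcript CEBPA-DT, 286 bases away, had group means of 9.77, 8.23 and 10.3 normalised CPM and log2 fold changes of -0.26 (edgeR adjusted p 0.782) and 0.07 (edgeR adjusted p 0.921).

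CEBPB (chr20:50190583-50192690), the member induced by inflammatory and stress signals, was the only factor with a positive sign for both guides. It held 153.4, 184.4 and 163.4 normalised CPM in sgCtrl, 166.6, 230.3 and 184.6 in sgKEAP1-1 and 215.2, 220.2 and 124.8 in sgKEAP1-2 cells, and the groups overlapped. The log2 fold changes were 0.22 (95% interval -0.21 to 0.64, edgeR adjusted p 0.714) and 0.16 (95% interval -0.26 to 0.59, edgeR adjusted p 0.7). CEBPB made up 42.8 ± 4.4% of CEBPA and CEBPB counts in sgCtrl, 49.8 ± 10.1% in sgKEAP1-1 and 47.8 ± 10.4% in sgKEAP1-2 cells (SD, n = 3), with exact permutation p values of 0.5 for each guide against sgCtrl (0.625 adjusted).

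PROX1 (chr1:213983151-214041510) held 139.6, 119.8 and 117.7 normalised CPM in sgCtrl, 97.19, 97.38 and 119.4 in sgKEAP1-1 and 113.6, 113.4 and 92.79 in sgKEAP1-2 cells. The sgKEAP1-2 libraries were all below those of sgCtrl, and 1 sgKEAP1-1 library lay within the sgCtrl range. The log2 fold changes of -0.27 (95% interval -0.57 to 0.03, edgeR adjusted p 0.419) and -0.24 (95% interval -0.54 to 0.06, edgeR adjusted p 0.339) did not pass. Between the guides, 0 of the 7 members were called by edgeR, limma-voom or DESeq2 and 0 reached an unadjusted p under 0.05 in edgeR, where 0.0181% of all tested genes were called, 5.07% reached that unadjusted p and the groups did not overlap for 10.4%. The 95% intervals of the guide difference ran from -0.42 to 0.14 for HNF4A, from -0.25 to 0.35 for FOXA2 and from -0.27 to 0.33 for PROX1. The point values were 0.05 for FOXA2, 0.10 for FOXA3, 0.02 for CEBPA, -0.06 for CEBPB and 0.03 for PROX1.

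The libraries with replicate number 2 stood at an end of their group for some factors. HNF4A and CEBPA were lowest in replicate 2 of all 3 groups, and FOXA1 and CEBPB were highest there. This was the case for 4 of 7 members and for 24% of all tested genes (11.7% lowest and 12.2% highest).

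The factors that share promoters, dimers or feedback with these members were read from a list of 37 partner genes, 34 of them measured. With sgKEAP1-1, 4 of 34 were called lower and 0 higher, beside 1.4% and 2.8% of all genes. With sgKEAP1-2, 7 were called lower and 1 higher, beside 4.85% and 5.97%. The list medians were -0.10 and -0.28 on the log2 scale, against 0 and -0.01 over all genes. With the replicate block 8 partners were called for sgKEAP1-1 (6 lower and 2 higher) and 13 for sgKEAP1-2 (9 lower and 4 higher). The block also raised the calls over all 11064 tested genes, from 465 to 977 for sgKEAP1-1 and from 1197 to 1955 for sgKEAP1-2. The count for sgKEAP1-1 dropped to 1 without sgCtrl replicate 1 or sgKEAP1-1 replicate 1 and to 2 without sgCtrl replicate 3, sgKEAP1-1 replicate 2 or sgKEAP1-1 replicate 3. That for sgKEAP1-2 dropped from 8 to 4 without sgCtrl replicate 1 and to 5 without sgCtrl replicate 3 or sgKEAP1-2 replicate 1.

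ONECUT1, the HNF6 factor of liver and bile duct development that activates HNF4A and FOXA2, had the largest fall among the called partners with each guide. It held 22.52, 23.82 and 23.42 normalised CPM in sgCtrl, 11.21, 7.41 and 7.36 in sgKEAP1-1 and 5.85, 6.59 and 6.3 in sgKEAP1-2 cells. Every KEAP1-targeted library lay below every sgCtrl library. The log2 fold changes were -1.42 (SE 0.23, edgeR adjusted p 0.00158) and -1.89 (SE 0.24, edgeR adjusted p 0.000103), and both calls were kept without any 1 library (edgeR adjusted p at most 0.011 and 0.00117).

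Other partners called lower with both guides were nuclear receptors and a membrane-bound factor. THRB, a thyroid hormone receptor, fell by 0.99 and 1.24 on the log2 scale (edgeR adjusted p 0.0191 and 0.00245), and CREB3L3, the hepatic factor CREB-H released from the endoplasmic reticulum, fell by 1.02 and 1.29 (edgeR adjusted p 0.0198 and 0.00245). For both genes the sgKEAP1-2 calls were kept without any 1 library. The sgKEAP1-1 call was lost for THRB without sgCtrl replicate 1 (edgeR adjusted p 0.114), sgCtrl replicate 2 (0.0561), sgKEAP1-1 replicate 1 (0.105) or sgKEAP1-1 replicate 2 (0.0547). It was lost for CREB3L3 without sgCtrl replicate 1 (edgeR adjusted p 0.135), sgCtrl replicate 3 (0.0575), sgKEAP1-1 replicate 1 (0.111) or sgKEAP1-1 replicate 3 (0.0758). NR2F2 (COUP-TFII), which competes with HNF4A for its sites, fell by 0.65 with sgKEAP1-2 (edgeR adjusted p 0.00395, kept without any 1 library) and had -0.46 with sgKEAP1-1 (edgeR adjusted p 0.0592, passing with the replicate block at 0.0146, with DESeq2 at 0.0316 and in edgeR without sgKEAP1-2 replicate 3 at 0.0331). RXRA, the shared dimer partner of liver nuclear receptors, fell by 0.57 and 0.48 (edgeR adjusted p 0.0197 and 0.0286). Its sgKEAP1-1 call was lost without sgCtrl replicate 1 (edgeR adjusted p 0.114), sgCtrl replicate 3 (0.109) or sgKEAP1-1 replicate 1 (0.0584), 2 (0.0659) or 3 (0.077), and its sgKEAP1-2 call without sgCtrl replicate 1 (0.126), sgCtrl replicate 3 (0.12) or sgKEAP1-2 replicate 1 (0.097) or 2 (0.0926).

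With sgKEAP1-2 alone, edgeR also called HHEX, TEF and PPARGC1B. HHEX, a homeobox factor of early liver budding, fell by 0.52 (edgeR adjusted p 0.0265), and the call was lost without sgCtrl replicate 1 (0.115), sgCtrl replicate 3 (0.11), sgKEAP1-2 replicate 1 (0.108) or sgKEAP1-2 replicate 2 (0.0695). TEF, a clock-controlled zipper factor, fell by 1.17 (edgeR adjusted p 0.0301), and the call was lost without sgCtrl replicate 1 (0.159), sgCtrl replicate 3 (0.0503) or sgKEAP1-2 replicate 1 (0.113). The coactivator PPARGC1B was the only partner called higher and rests on 2 to 8 reads a library in sgCtrl (edgeR adjusted p 0.0172). Its call was lost without sgCtrl replicate 1 (0.0914), sgCtrl replicate 2 (0.0622) or sgKEAP1-2 replicate 3 (0.0593). With sgKEAP1-1 the edgeR adjusted p was 0.371 for HHEX, 0.254 for TEF and 0.119 for PPARGC1B (0.0398 with the replicate block), and whether the guides differ for these genes was tested directly without a call (0.986 for each).

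NR0B2 and NR1H4 did not pass with either guide. NR0B2, the small heterodimer partner that feeds back on bile acid synthesis, had log2 fold changes of 0.14 and 0.26 (edgeR adjusted p 0.857 and 0.522). The bile acid receptor NR1H4 had -0.44 and -0.35 (edgeR adjusted p 0.229 and 0.252).

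**Figure D4:**
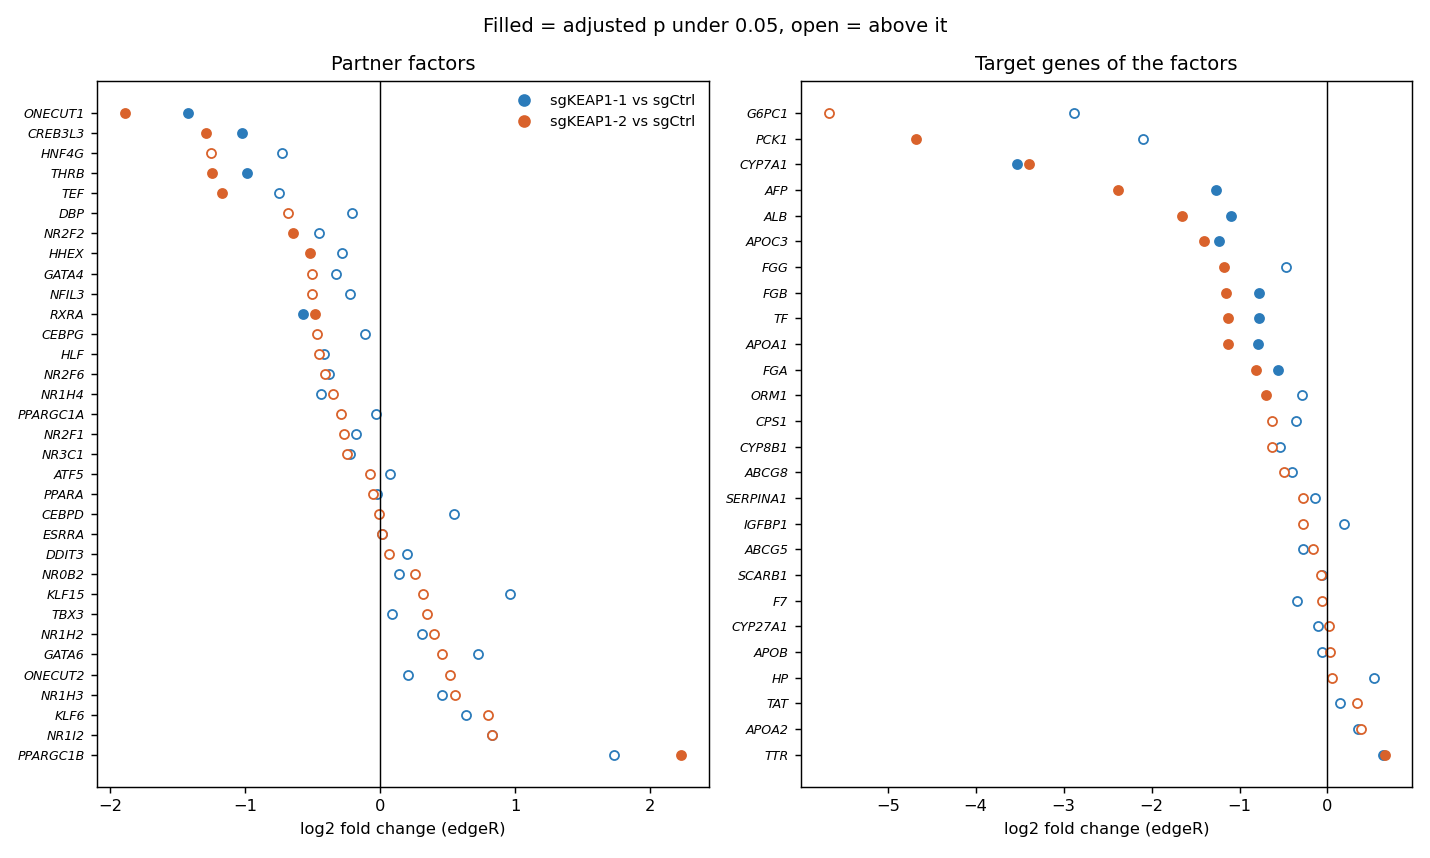
Log2 fold changes by edgeR of the partner factors (1 of the 34 is not drawn) and 26 target genes for each KEAP1 guide against sgCtrl, ordered by the sgKEAP1-2 value. Filled points passed an adjusted p of 0.05, which 4 and 8 partner factors and 9 and 12 target genes did.

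Genes that these factors are known to activate were read from a list of 29, of which 26 were measured. With sgKEAP1-1, 8 of 26 were called lower and 1 higher, and with sgKEAP1-2, 11 were called lower and 1 higher, beside the shares of all genes given above for each direction. The list medians were -0.38 and -0.64 on the log2 scale. The sgKEAP1-1 count of 9 fell to 5 without sgKEAP1-1 replicate 1 or sgKEAP1-1 replicate 2. Between the guides 0 of 26 were called by edgeR, with 7 at an unadjusted p under 0.05 and 1 called by DESeq2. With the replicate block 4 were called, each lower with sgKEAP1-2 (ALB, AFP, PCK1 and G6PC1, edgeR adjusted p 0.023, 2.92e-05, 0.00209 and 0.0196). Over all 11064 tested genes edgeR without the block called 0.0181% between the guides and 5.07% reached that unadjusted p. Over the same genes the replicate block called 26 and DESeq2 called 19.

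Genes of several plasma proteins were among those called lower. ALB (albumin), a classic target of CEBPA and FOXA factors, held 13610, 16330 and 11030 normalised CPM in sgCtrl, 5373, 7761 and 6031 in sgKEAP1-1 and 4281, 5186 and 3493 in sgKEAP1-2 cells. Its log2 fold changes were -1.10 (SE 0.19, edgeR adjusted p 0.0027) and -1.66 (SE 0.19, edgeR adjusted p 5.09e-05). AFP, the fetal counterpart of albumin, held 5385, 6902 and 5788, then 2020, 3143 and 2339, then 1147, 1386 and 930.1 normalised CPM in the same order of groups. No libraries of different groups overlapped for either gene. For AFP the log2 fold changes were -1.27 (SE 0.18, edgeR adjusted p 0.00078) and -2.38 (SE 0.19, edgeR adjusted p 2.36e-06). TF (transferrin) fell by 0.78 and 1.13 (edgeR adjusted p 0.0031 and 7.61e-05), and FGB, the fibrinogen beta chain, fell by 0.78 and 1.155 (edgeR adjusted p 0.00575 and 0.000125). The calls on ALB, AFP, TF and FGB were kept with both guides without any 1 library.

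Some apolipoprotein and fibrinogen genes were also called lower. APOA1 fell by 0.80 and 1.13 (edgeR adjusted p 0.0156 and 0.000688), APOC3 by 1.24 and 1.41 (0.0151 and 0.00378) and the fibrinogen chain FGA by 0.56 and 0.81 (0.0435 and 0.00197). The sgKEAP1-2 calls on these genes were kept without any 1 library. APOA2 had 0.35 and 0.38 (edgeR adjusted p 0.335 and 0.177), APOB had -0.06 and 0.03 (0.909 and 0.928) and the acute phase gene HP had 0.53 and 0.06 (0.254 and 0.919), so none of these 3 passed, although APOA2 did with the replicate block (edgeR adjusted p 0.0467 and 0.0137). For sgKEAP1-1, APOA1 was lost without sgCtrl replicate 1 (edgeR adjusted p 0.101), sgKEAP1-1 replicate 1 (0.0899) or sgKEAP1-1 replicate 2 (0.0632), and APOC3 without sgKEAP1-1 replicate 1 (0.0736) or sgKEAP1-1 replicate 2 (0.0744). FGA was lost without sgCtrl replicate 1 (0.254), sgCtrl replicate 3 (0.092) or sgKEAP1-1 replicate 1 (0.175), 2 (0.0853) or 3 (0.11), and also with limma-voom (adjusted p 0.0551) or with at least 10 counts in every library (0.0561). With sgKEAP1-2 alone, the fibrinogen chain FGG was called (log2 fold change -1.18, edgeR adjusted p 0.0193, 0.0671 without sgCtrl replicate 1), as was the acute phase protein ORM1 (-0.70, edgeR adjusted p 0.0203). The ORM1 call was lost without sgCtrl replicate 1 (0.0847), sgCtrl replicate 3 (0.0936) or sgKEAP1-2 replicate 2 (0.0729). With sgKEAP1-1 the values were -0.47 for FGG and -0.29 for ORM1 (edgeR adjusted p 0.469 and 0.504).

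PCK1, the gate enzyme of gluconeogenesis, varied widely, at 21.99, 86.09 and 22.31 normalised CPM in sgCtrl, 2.68, 20.26 and 6.58 in sgKEAP1-1 and 1.23, 2.93 and 0.727 in sgKEAP1-2 cells. It was called lower with sgKEAP1-2 (edgeR adjusted p 0.0255), where it rested on 4, 12 and 3 reads, and not with sgKEAP1-1 (0.265), although the replicate block called it there (log2 fold change -2.18, edgeR adjusted p 2.07e-06). The sgKEAP1-2 call was lost without sgKEAP1-2 replicate 1 (0.0982), 2 (0.0855) or 3 (0.119).

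CYP7A1, the rate-limiting enzyme of bile acid synthesis and a target of HNF4A, had 26, 13 and 32 reads in the sgCtrl libraries, 1, 4 and 2 in sgKEAP1-1 and 4, 2 and 1 in sgKEAP1-2 cells. It was called lower with both guides (edgeR adjusted p 0.00176 and 0.00133). With so few reads in the KEAP1-targeted libraries, CYP7A1 passed the filter on low counts through its sgCtrl libraries alone. The setting of at least 10 counts in every library left it out, and the size of its fall is poorly measured. TTR (transthyretin), a target of FOXA factors and HNF4A, was the 1 target gene called higher with each guide. The sign of the fold change was positive for 5 of the 26 target genes with sgKEAP1-1 and for 6 with sgKEAP1-2. Over all 11064 tested genes it was positive for 5524 and 5348. TTR held 391.8, 436.2 and 332.9 normalised CPM in sgCtrl, 627.2, 683 and 488.6 in sgKEAP1-1 and 598.4, 528.5 and 694.6 in sgKEAP1-2 cells, and rose by 0.63 and 0.65 on the log2 scale (edgeR adjusted p 0.0296 and 0.0131). The TTR call was lost for sgKEAP1-1 without sgCtrl replicate 1 (edgeR adjusted p 0.114), sgCtrl replicate 3 (0.165), sgKEAP1-1 replicate 1 (0.121) or sgKEAP1-1 replicate 2 (0.114), and for sgKEAP1-2 without sgCtrl replicate 1 (0.0523) or sgCtrl replicate 3 (0.0793).

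Markers of other cell types were read beside these results. Of the 7 hepatocyte markers, which are also in the list of target genes, all were measured, and their summed level was 28770 to 36510 normalised CPM in sgCtrl, 16520 to 20930 in sgKEAP1-1 and 13610 to 15240 in sgKEAP1-2 libraries. Within this sum ALB, AFP, APOA1 and TF were called lower with both guides and TTR higher. In the same order of groups the means were 4841, 4654 and 4932 normalised CPM for APOB and 30.07, 27.25 and 24.73 for SERPINA1. Of 4 biliary markers 2 were measured (KRT19 and SOX9), with a sum of 510.7 to 588.6, 727.4 to 954.1 and 789.2 to 1037. KRT19, a keratin of bile duct cells, rose by 1.28 and 1.48 on the log2 scale (edgeR adjusted p 0.00194 and 0.000346), while the SOX9 means were 328, 309 and 270 normalised CPM. The other defining biliary markers KRT7 and CFTR were not analysed here. Of 4 fibroblast markers 2 were measured, at 8.21 to 15.0, 6.84 to 12.9 and 6.16 to 15.9 summed normalised CPM, and of 2 leukocyte markers 1 was measured, at 2.12 to 5.44, 2.92 to 5.26 and 2.44 to 5.81. The 3 endothelial markers were not analysed here. In these bulk RNA samples fewer cells of a kind and less RNA per cell cannot be told apart, and the part of these markers in the results on HNF4A was not tested.

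As a check of the labels, the NRF2 targets NQO1, GCLM, TXNRD1 and OSGIN1 were all called higher with both guides, with log2 fold changes of 1.38 to 2.13 for sgKEAP1-1 and 1.74 to 2.38 for sgKEAP1-2. KEAP1 itself held 63.3 to 89.2 normalised CPM in sgCtrl, 53.4 to 64.1 in sgKEAP1-1 and 73.9 to 85.6 in sgKEAP1-2 libraries and did not pass (log2 fold changes -0.40 and 0.02, edgeR adjusted p 0.211 and 0.952). Reads near the poly(A) tail do not cover a guide's cut site elsewhere in the gene and check no edit.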

How the data were processed

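RNA of 9 HepG2 libraries (3 each of sgCtrl, sgKEAP1-1 and sgKEAP1-2) was sequenced by the authors from QuantSeq 3′ libraries, and the counts the authors deposited are whole numbers of reads for each gene. The submitters' processing notes name FastQC 0.72, cutadapt 1.16, STAR 2.7.5b, featureCounts 1.6.3 and limma 3.40.6. They name the build hg38, whereas the study's methods name GRCh37, and the counts carry no coordinates. The annotation and the strand setting are not given in the sources used here. Every row of the 12798 deposited had over 0.5 CPM in at least 3 libraries, so low counts had been removed before deposit.

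The 1052 rows without a gene number held 1.34% of reads and stayed out of library sizes and tests. For 3 gene numbers on 2 rows each the counts were summed, which left 11743 genes, 11737 with a RefSeq symbol. No sample column was unused. Libraries held 3011644 to 4725840 reads on named genes (median 3758185). No library duplicated another of its group (chi-square per degree of freedom of 4.63 to 24.2).

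Genes were filtered with filterByExpr, scaled by TMM and tested with edgeR's quasi-likelihood test (edgeR 4.0.16, R 4.3.3, robust fit, the group as the only factor, all 9 libraries in 1 fit). An adjusted p (Benjamini-Hochberg over 11064 genes) under 0.05 was a call. The study used limma-voom, which was an alternative here. The SE is the log2 fold change over the square root of F, and 95% intervals use it with the test's degrees of freedom. The code was tested on simulated data. The alternatives were a block for the replicate number, RLE factors, library size alone, limma-voom (limma 3.58.1), DESeq2 1.42.0, no filter, at least 10 counts in every library, each library left out and, chosen after seeing the data, the rows without a gene number kept.

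The replicate numbers come from the sample titles. Per the labels, libraries of the same number in all 3 groups also share a description prefix and consecutive S numbers, whose meaning is not given. Their pairing was checked by correlating deviations from the group means across genes. Same-numbered libraries of sgCtrl and sgKEAP1-1 correlated at 0.226, 0.378 and 0.163, all over 0.1. For sgCtrl and sgKEAP1-2 (-0.013, 0.341 and 0.203) and for the guides (0.03, 0.521 and 0.213) 1 pair was under 0.1. Values blocked on the replicate number are given beside the results whose call they change. The blocked fit held all 9 libraries.

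Promoter windows and coordinates are from RefSeq tables of GRCh38.p14, matched by symbol. The members and gene lists were chosen with earlier results of these data known. Named by rule were all members, the 3 nearest profiles of each called member, the partner and target genes called with either guide (at most the 15 lowest p in each list), NR0B2, NR1H4, ALB, TTR, APOC3, CYP7A1 and PCK1 whatever their values, and the label checks. SRXN1 was not analysed here. A few genes that the rule names are not reported here. LINC00261 and CEBPA-DT were named as gene neighbours and KRT19 and SOX9 as listed markers. APOA2, APOB and HP were named after their values were seen. NR5A2 was not analysed here.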

Additional observations from a re-analysis of the deposited data

How the results depend on the processing

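With a replicate block in the model, the calls over all genes were 977 for sgKEAP1-1, 1955 for sgKEAP1-2 and 26 between the guides, against 465, 1197 and 2 without it. The members called were then 1 (HNF4A, edgeR adjusted p 0.0121) for sgKEAP1-1 and 2 (HNF4A and FOXA1, edgeR adjusted p 0.000703 and 0.00284) for sgKEAP1-2, the partner factors 8 and 13, and the target genes between the guides 4. Same-numbered libraries share a label prefix of unstated meaning, and 1 pair each for sgKEAP1-2 and between the guides correlated under 0.1, so what the number marks is not established. Averaged over the libraries of each number, 8 of 9 libraries correlated best with their own number, a hint from the data. In single pairs, sgKEAP1-2 replicate 3 correlated best with sgKEAP1-1 replicate 1 (0.266, against 0.203 and 0.213 with its own number). The block also called G6PC1 lower against sgCtrl with each guide (edgeR adjusted p 3.55e-06 and 8.01e-09), and it changed no other call on a member, partner or target gene that the text names. For sgKEAP1-2, limma-voom called 2 members and DESeq2 called 2. Between the guides, limma-voom called 0 genes, DESeq2 19 (1 of them a target gene), and at least 10 counts in every library left 0. The other scalings, the unfiltered table and the table with unnumbered rows moved no count by over 1.5 times. Under the scalings tried the median of all genes lay between -0.014 and 0.009. The cause of these changes was not tested.

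With 1 library left out, calls over all genes ranged from 278 to 688 for sgKEAP1-1, from 764 to 1291 for sgKEAP1-2 and from 0 to 2 between the guides. Members called for sgKEAP1-2 ranged from 0 to 1, partner factors from 1 to 5 and from 4 to 10, and target genes for sgKEAP1-1 from 5 to 9. Signs turned for small values: FOXA2 for sgKEAP1-2 ranged from -0.13 to 0.083, KEAP1 from -0.12 to 0.11, CEBPA-DT from -0.20 to 0.22 and NR0B2 for sgKEAP1-1 from -0.13 to 0.28. Between the guides FOXA2 ranged from -0.016 to 0.18, FOXA3 from -0.14 to 0.48, CEBPA from -0.14 to 0.18, CEBPB from -0.18 to 0.17 and PROX1 from -0.024 to 0.13. FOXA3, at 12.42 to 28.1 normalised CPM, had the fewest counts of the members and a wide interval.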
